A study of Mus musculus and Rattus norvegicus with 30 samples.

Results

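The 10 genes described here are classical surface and signalling markers of T and B lymphocytes, taken by gene symbol from 54315 features of the mouse table and 39281 of the rat table: Ptprc, Cd3d, Cd3e, Cd3g, Cd4, Cd8a, Cd2, Lck, Cd79a and Ms4a1. They were measured by RNA-seq of whole dorsal root ganglia (DRG), which house the cell bodies of sensory neurons, after injury of a peripheral nerve. In adult mice of both sexes, L3 and L4 DRG were taken 28 days after spared nerve injury (SNI), a lesion that cuts the common peroneal and sural branches and leaves the tibial branch, or after a sham operation that only exposed the nerve. The inbred strains BALB/c and B10.D2 gave 10 libraries each (BALB/c with 6 sham and 4 SNI, B10.D2 with 5 of either kind), 1 animal per library, made from RNA depleted of ribosomal RNA. In male Wistar rats, L5 DRG were taken 21 days after spinal nerve transection (SNT), in which the L5 spinal nerve is ligated and cut, or after sham exposure of it, and each of the 4 sham and 4 SNT libraries pooled 3 animals and was made from polyadenylated RNA. No group carried a transgene or a deletion. Mouse libraries are named by group and by the sample number in their labels, and rat libraries by group and a letter, A to D within each group in order of the last number in their titles.

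T cells recognise antigen through a T cell receptor that signals by way of the CD3 chains, with the co-receptor CD4 on helper cells or CD8 on cytotoxic cells bringing the kinase Lck to the receptor. B cells recognise antigen through membrane antibody, which signals through Cd79a and its partner chain. Ptprc encodes CD45, the tyrosine phosphatase on the surface of all nucleated blood-derived cells, so it is shared by lymphocytes, macrophages and neutrophils. Healthy DRG hold few lymphocytes and many resident macrophages, and T cells have long been described in the DRG of animals with a damaged nerve. In whole tissue, fewer cells of a type and less RNA per cell cannot be told apart.

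The genes of the CD3 chains lie side by side. In the GENCODE M21 annotation of GRCm38/mm10, Cd3g occupies bases 44969572 to 44980431 of chromosome 9 on the minus strand, Cd3d bases 44981786 to 44987339 on the plus strand, and Cd3e bases 44998740 to 45009627 on the minus strand. The divergent Cd3g and Cd3d are separated by 1354 bases, and Cd3d and Cd3e, which converge, by 11400. Their start regions are printed because the 3 genes sit in 1 cluster yet fell on different sides of the test's threshold when the strains were compared. Each window holds 250 bases before and 50 after the RefSeq start on GRCm38.p6, 5′ to 3′ on the gene's strand (Cd3d at chr9:44981536-44981835, Cd3e at chr9:45009562-45009861, Cd3g at chr9:44980382-44980681), and is reference sequence, not read from either strain. Capitals mark AGGAAG or its reverse complement CTTCCT, a string that holds GGAA, the core letters bound by ETS-family factors. Other GGAA or TTCC stretches, which all 3 windows hold, are not marked.
Cd3d: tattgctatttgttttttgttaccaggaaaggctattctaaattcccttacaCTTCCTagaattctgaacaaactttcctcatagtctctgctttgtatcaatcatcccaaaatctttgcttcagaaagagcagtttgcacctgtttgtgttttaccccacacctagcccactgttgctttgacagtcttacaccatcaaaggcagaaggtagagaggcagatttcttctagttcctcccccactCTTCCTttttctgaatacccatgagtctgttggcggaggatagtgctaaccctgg
Cd3e: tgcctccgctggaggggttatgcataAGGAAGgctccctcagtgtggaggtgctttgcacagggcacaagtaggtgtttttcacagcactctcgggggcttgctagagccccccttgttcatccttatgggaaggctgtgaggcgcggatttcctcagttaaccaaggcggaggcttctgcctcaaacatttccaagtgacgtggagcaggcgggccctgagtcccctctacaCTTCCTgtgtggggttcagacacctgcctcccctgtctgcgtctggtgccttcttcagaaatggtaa
Cd3g: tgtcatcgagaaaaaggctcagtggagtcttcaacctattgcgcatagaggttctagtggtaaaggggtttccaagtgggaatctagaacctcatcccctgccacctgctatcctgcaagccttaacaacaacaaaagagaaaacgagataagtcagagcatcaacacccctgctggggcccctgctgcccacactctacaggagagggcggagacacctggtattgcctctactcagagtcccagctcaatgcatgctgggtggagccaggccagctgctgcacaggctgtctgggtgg
Cd3d and Cd3e held 2 matches each to the marked string and Cd3g none, which does not mean that Cd3g lacks the shorter core. At least 1 match stood in 35.4% of 32851 RefSeq mouse windows of this length and at least 2 in 8.62%. The RUNX core letters, TGTGGT or ACCACA, which do not overlap the ETS letters, were found in none of these 3 windows and in 16.8% of all windows. RefSeq windows were held for 7 of the 10 genes.

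The other genes are scattered over the genome. Ptprc lies on the minus strand of chromosome 1 (138062861 to 138175708), Cd2 on the minus strand of chromosome 3 (101275899 to 101287939), Lck on the minus strand of chromosome 4 (129548344 to 129573641) and Cd79a on the plus strand of chromosome 7 (24897381 to 24902197). Cd8a (plus strand, 71373427 to 71379173) and Cd4 (minus strand, 124864692 to 124888221) share chromosome 6, and Ms4a1 is on the minus strand of chromosome 19 (11249675 to 11266241). All are protein-coding. Exons of Cd3e overlap those of Gm48719 on the opposite strand, which stranded counting separates, and Lck shares exon bases with Mir8119 on its own strand.

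Library totals ran from 29989963 to 41881331 counts in mouse and from 11954612 to 17887909 in rat, so 3 counts equal 0.0716 to 0.10 CPM (counts per 1000000 counts of the library) in mouse and 0.168 to 0.251 CPM in rat. Sensory neuron markers summed to at least 5760 CPM in every mouse library and 3692 CPM in every rat library. Some libraries stood apart on markers of other tissues. A list of 12 neutrophil and marrow precursor genes summed to 320 CPM in BALB/c sham 50, 167 in BALB/c sham 55 and 512 in BALB/c SNI 49, and 6 fat and muscle genes summed to 1227 CPM in sham 50 and 492 in SNI 49. In the rat, the library labelled sham C was above the other sham libraries for 3 nerve injury genes, with 4358 counts of Gal (998 to 1477 in the others), 91 of Sprr1a (17 to 23) and 812 of Sox11 (143 to 304), so its sham label is in doubt. The mouse injury genes separated all SNI from all sham libraries, at 521 to 672 CPM in BALB/c SNI, 243 to 436 in B10.D2 SNI and 142 to 193 in sham. Of 13579 rat features that carry the symbol of a mouse gene with at least 200 counts, 5104 (37.6%) were listed at 0 in all 8 rat libraries, genes that every neuron uses among them (Tubb3), so a rat gene listed at 0 is not read as absent.

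**Figure D1:**
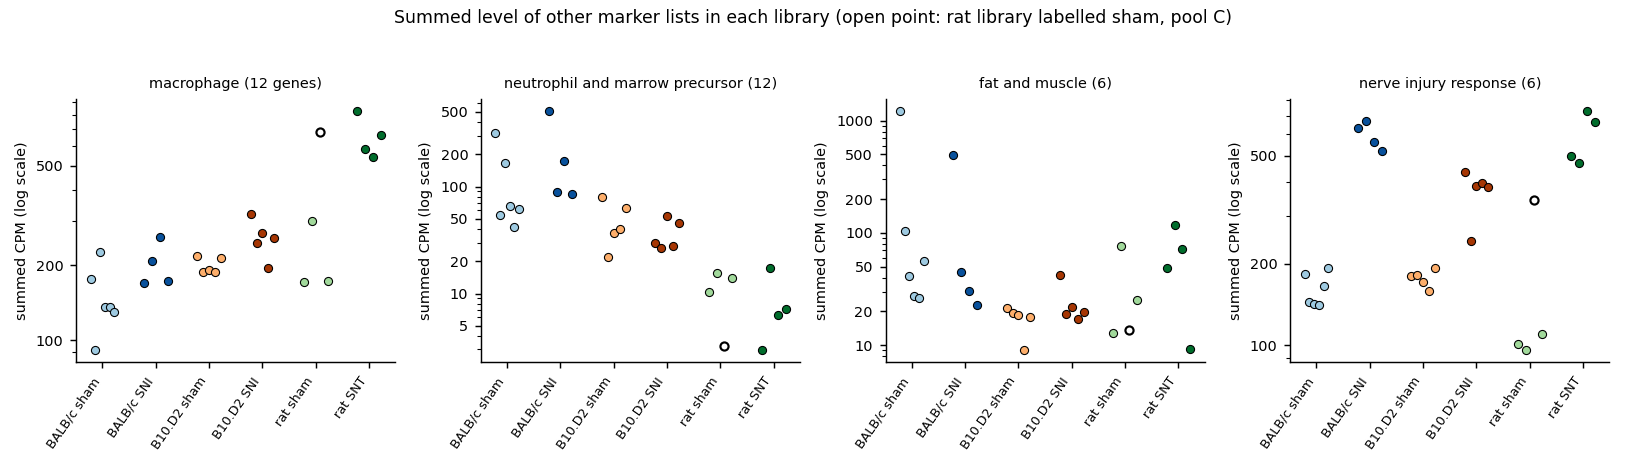
Summed CPM (log axis) of 4 other marker lists in each library, 1 point a library, by group. Macrophage genes reach 681 CPM in the open point, rat sham C, which lies among the SNT libraries (543 to 830) and above the other 3 sham libraries, and marrow and muscle genes are highest in single BALB/c libraries.

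Lymphocyte transcripts were rare in mouse DRG. Ptprc, shared with macrophages, had 553 to 1663 counts a library, whereas Cd3e had 0 to 18, Cd3d 2 to 15, Cd3g 2 to 33 and Cd8a 2 to 31. On the scale of CPM per kilobase of exon, Ptprc was the highest of the 10 in each of the 4 groups, from 1.15 ± 0.402 in BALB/c sham (SD, n = 6) to 1.95 ± 0.492 in B10.D2 SNI (n = 5), and Cd3e was the lowest, from 0.0204 ± 0.0162 to 0.0725 ± 0.0152. The gene in second place per kilobase was Cd79a of B cells in BALB/c (0.801 ± 0.154 in sham) and Lck in B10.D2 (0.692 ± 0.101 in sham, where it and Cd79a at 0.580 ± 0.139 did not differ beyond the SD of their difference within libraries). Cd3d, Cd3e, Cd3g and Cd8a took the last 4 places in each group, and in B10.D2 sham, B10.D2 SNI and BALB/c sham no neighbours among these 4 differed beyond that SD. Per library in CPM, all 10 genes are shown in the plot of mouse levels.

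**Figure D2:**
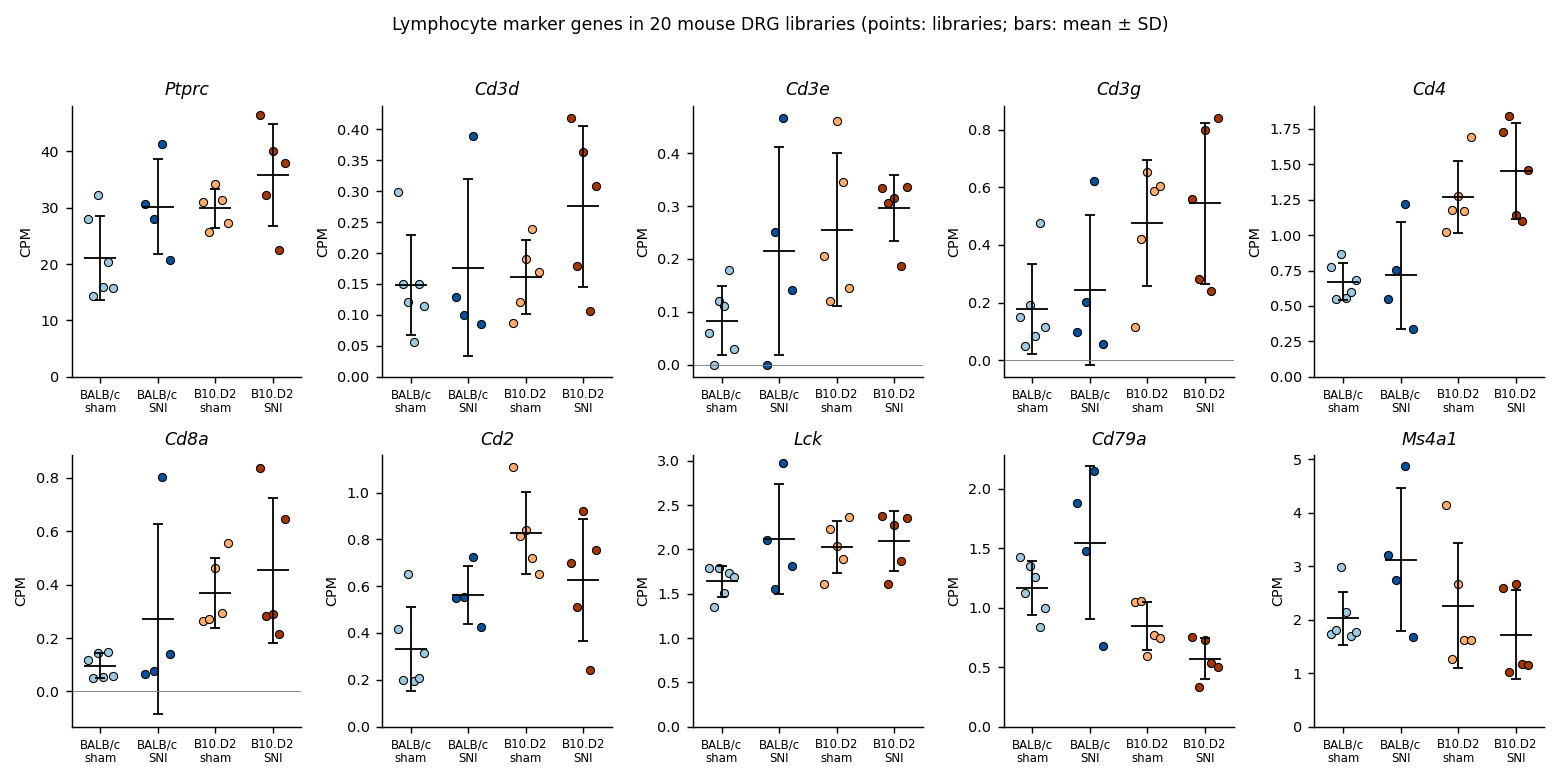
CPM of each of the 10 genes in 20 mouse libraries, 1 panel a gene with its own axis that includes 0; points are libraries, bars the mean ± SD of a group. The 5 B10.D2 sham libraries lie above all 6 BALB/c sham libraries for Cd4, Cd8a and Cd2, and no gene separates SNI from sham in either strain.

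Between the strains, the sham libraries address whether the uninjured state differed. Of the T cell genes 5, and with them Ptprc, were higher in B10.D2 sham than in BALB/c sham, by 1.45-fold for Ptprc to 4.0-fold for Cd8a, and neither B cell gene passed the test. By edgeR's quasi-likelihood test with Benjamini-Hochberg adjustment over 24685 features, 6 of the 10 were called, all higher, where 21.6% of all features tested were called. The median log2 difference, B10.D2 minus BALB/c, was 0.74 over the 10 genes and -0.01 over all features. DESeq2 called 5 of the 10. Reads of both strains were aligned to mm10. Whether sequence differences between the strains affected the counts compared here and after SNI was not tested.

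The co-receptors separated the sham groups. Cd4, the co-receptor of helper T cells, was at 1.02, 1.18, 1.28, 1.17 and 1.69 CPM in B10.D2 sham against a lowest value of 0.551, a median of 0.641 and a highest of 0.869 in BALB/c sham. No libraries overlapped, and the log2 difference was 0.95 ± 0.23 (SE, adjusted p = 0.00438 by edgeR). Cd8a, the alpha chain of the cytotoxic co-receptor, was at 0.263, 0.271, 0.462, 0.293 and 0.555 CPM (9 to 23 counts) against 0.0501 to 0.149 CPM with a median of 0.0881 in BALB/c sham. Here too the groups did not overlap, with a log2 difference of 2.0 ± 0.59 (adjusted p = 0.0175 by edgeR). Without B10.D2 sham 88, the library with the highest Cd8a, the difference was 1.72 with an adjusted p of 0.0617 by edgeR.

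Cd2, an adhesion receptor of T and natural killer cells that mouse B cells also carry, was at 1.11, 0.814, 0.842, 0.718 and 0.652 CPM in B10.D2 sham and at 0.195 to 0.652 CPM with a median of 0.261 in BALB/c sham. All B10.D2 sham libraries were above all BALB/c sham libraries, the closest pair by less than the digits printed, and the difference was 1.32 ± 0.31 on the log2 scale (adjusted p = 0.00355 by edgeR). Across all features with counts, 8.55% separated the sham groups in this way, against these 3 of the 10. Lck, the kinase that starts T cell receptor signalling, differed by 0.31 on the log2 scale with a 95% interval from -0.02 to 0.64 (adjusted p = 0.191 by edgeR).

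The CD3 genes did not give 1 answer. Cd3e was at 0.205, 0.121, 0.462, 0.346 and 0.145 CPM in B10.D2 sham against 0 to 0.179 CPM (median 0.0856) in BALB/c sham, a log2 difference of 1.74 ± 0.47 (adjusted p = 0.0103 by edgeR). Cd3g was at 0.117, 0.422, 0.652, 0.585 and 0.603 CPM against 0.0501 to 0.478 CPM (median 0.132), a difference of 1.55 ± 0.52 (adjusted p = 0.0370 by edgeR). For both genes the groups overlapped. Cd3d, their neighbour, was at 0.0877 to 0.239 CPM in B10.D2 sham and 0.0558 to 0.298 CPM in BALB/c sham, and its difference of 0.16 had a 95% interval from -0.81 to 1.14. Whether the 3 genes differed from each other in this was not tested. The call of Cd3g was lost in 8 of 20 fits that each left out 1 library, with B10.D2 sham 88 giving 1.33 (adjusted p = 0.107 by edgeR).

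Ptprc was at 31.0, 25.6, 34.2, 31.4 and 27.2 CPM in B10.D2 sham and at 14.3 to 32.1 CPM with a median of 18.1 in BALB/c sham. The highest BALB/c sham libraries, 55 at 32.1 and 50 at 27.95 CPM, reached into the B10.D2 range, and the log2 difference was 0.54 ± 0.19 (adjusted p = 0.0471 by edgeR). This call sat close to the threshold and was lost in 12 of 20 fits that left out 1 library. Without BALB/c sham 50 and 55 and SNI 49, a set chosen after seeing the data, the calls of Cd3e, Cd4, Cd8a and Cd2 held. The call of Cd3g was lost (1.53, adjusted p = 0.0905 by edgeR). Ptprc rose to 0.88 (adjusted p = 0.000223 by edgeR). Because that set removes the highest BALB/c sham libraries for Ptprc, this rise is no support for its call.

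Other T cell genes went in both directions between the sham groups, where 21.6% of all features were called. Of 20 tested genes of T cell receptor signalling and the T cell surface, 5 were higher in B10.D2 and 2 lower, the higher ones including the receptor alpha chain gene Trac (2.03 on the log2 scale) and the beta chain gene Trbc1 (1.14). Counts of both were few in BALB/c sham, at 0 to 7 a library for Trac and 5 to 18 for Trbc1. Of 9 cytotoxic and natural killer genes, 3 were higher in B10.D2 sham and none lower, namely the granule protease gene Gzmb (1.76) and the receptor genes Klrk1 (1.54) and Klrd1 (1.38). Of 17 B cell genes 2 were higher, Bank1 (0.41) and Ebf1 (0.24), and of 13 antibody and plasma cell genes 7 were higher, the largest being Ighg2b (4.58), Ighg2c (4.51) and Igha (2.58). Constant-region genes, Trbc1 and its copy Trbc2 among them, can be closely alike and can differ in sequence between inbred strains, so their counts are uncertain.

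Markers of other cells moved with these differences. In the same comparison 5 of 12 macrophage genes were higher in B10.D2 sham (C1qb by 1.09 on the log2 scale), the list summing to 187 to 218 CPM there and 91.4 to 225.6 CPM in BALB/c sham, with no gene of the list at 0. Of 16 pan-leukocyte genes 4 were higher (Ptpn22 by 1.16), near the 21.6% of all features. In the other direction, 5 of 12 neutrophil and marrow precursor genes and 5 of 6 fat and muscle genes were lower in B10.D2 sham. Their part in the lymphocyte differences was not tested.

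After SNI the strains differed in a B cell gene as well. Cd79a, the signalling chain of the B cell receptor, was at 0.754, 0.332, 0.727, 0.535 and 0.504 CPM in B10.D2 SNI and at 1.88, 1.48, 2.15 and 0.681 CPM in BALB/c SNI. Only BALB/c SNI 70 fell into the B10.D2 range, and the log2 difference, B10.D2 minus BALB/c, was -1.44 ± 0.28 (adjusted p = 0.000755 by edgeR). Cd4 was at 1.73, 1.84, 1.14, 1.10 and 1.46 CPM in B10.D2 SNI against 0.551, 0.752, 1.22 and 0.340 CPM in BALB/c SNI, a difference of 1.0 ± 0.25 (adjusted p = 0.00676 by edgeR). These were the 2 of 10 genes called, 1 in each direction, where 20.8% of all features were called and the median of the 10 was 0.32. DESeq2 called 3. No gene separated the SNI groups of the strains, as 12% of features with counts did.

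Ms4a1, which encodes the B cell surface protein CD20, was at 2.60, 1.02, 2.67, 1.18 and 1.15 CPM in B10.D2 SNI and at 3.21, 2.73, 4.87 and 1.67 CPM in BALB/c SNI, a log2 difference of -0.90 ± 0.33 (adjusted p = 0.0600 by edgeR). Of the 17 other B cell genes tested, 8 were lower in B10.D2 SNI and 1, Ebf1, was higher (0.37), with Blk, a Src-family kinase of B cells, at -1.38, the B cell transcription factor Pax5 at -1.20 and Fcer2a, the low-affinity IgE receptor CD23, at -1.19. The median of the 17 was -0.86, and 20.8% of all features were called. Marrow genes moved the same way and further: 10 of 12 were lower in B10.D2 SNI (Elane, a neutrophil protease, by -3.14), and the precursor lymphocyte gene Rag1 was lower (-1.14). The marrow list summed to 85.8 to 512 CPM in BALB/c SNI and 26.7 to 53.6 CPM in B10.D2 SNI, with its part in the B cell difference not tested. Cd4 and Cd79a were also called without SNI 49 and sham 50 and 55, with the remaining BALB/c SNI libraries at 85.8 CPM or more of the marrow list.

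The other T cell genes were not called between the SNI groups. Cd8a was at 0.837, 0.281, 0.291, 0.214 and 0.644 CPM in B10.D2 SNI and at 0.0649, 0.0752, 0.804 and 0.142 CPM in BALB/c SNI, a log2 difference of 0.69 with a 95% interval from -0.43 to 1.82. The single high value, 31 counts, came from BALB/c SNI 65, where Cd3g (0.622 CPM), Cd3d (0.389), Cd3e (0.467), Cd4, Lck, Cd2, Cd79a, Ms4a1 and Ptprc were also the highest of the 4 libraries, as was the summed level of the macrophage list (259 CPM, against 169 CPM in the lowest). Without it, Cd8a (2.17, adjusted p = 0.00848) and Cd3g (2.03, adjusted p = 0.0295) were called by edgeR as higher in B10.D2 SNI, making 4 genes in all.

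**Figure D3:**
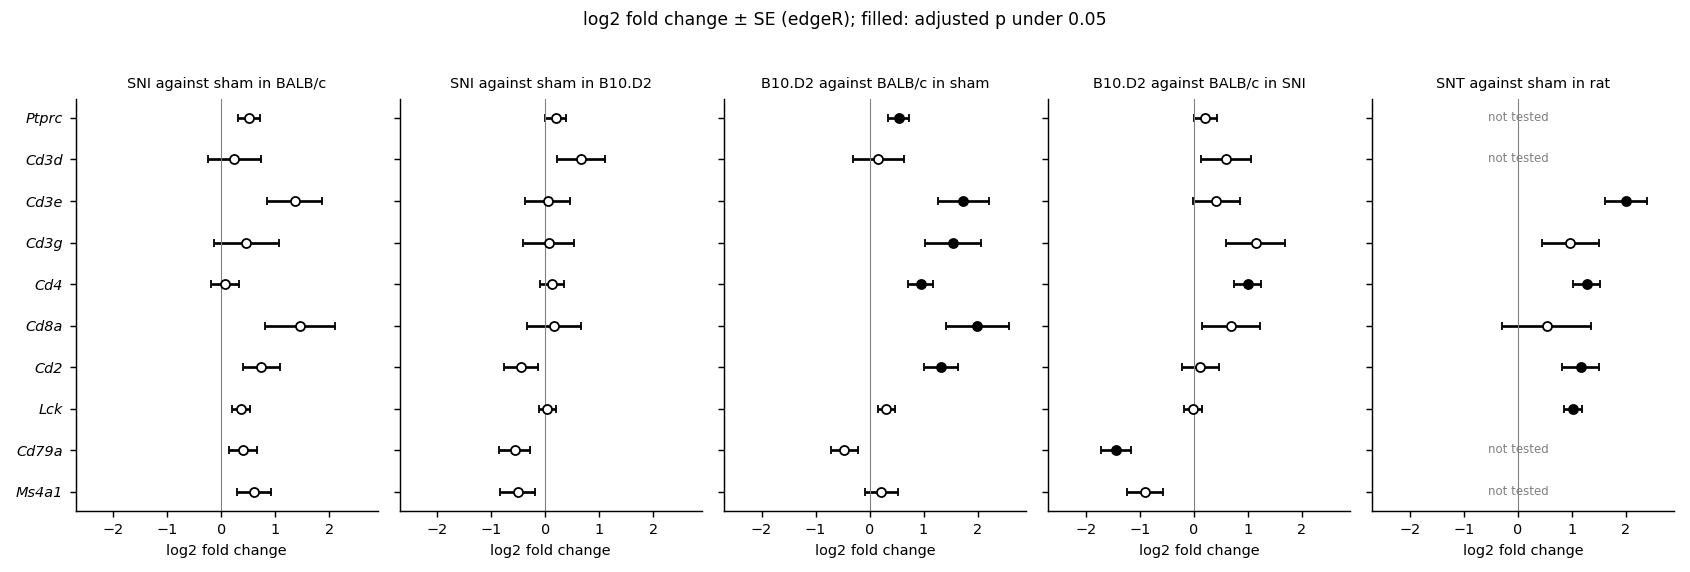
Log2 fold change ± SE of each of the 10 genes in 5 comparisons (x axis), from edgeR; filled points have an adjusted p under 0.05. In sham, 6 filled points lie to the right of 0 (higher in B10.D2), in SNI Cd4 lies to the right and Cd79a to the left, neither mouse injury comparison has a filled point, and the rat has 4.

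Injury itself called none of the 10 genes in BALB/c. All 10 had positive log2 changes, SNI minus sham, from 0.07 for Cd4 to 1.46 for Cd8a with a median of 0.49 (0.00 over all features), and 5 had an unadjusted p under 0.05 by edgeR, as had 23.2% of all features. By adjusted p, edgeR called 0 and DESeq2 called 0, where 9.69% of all features were called by edgeR. No gene separated SNI from sham, as 5.41% of features with counts did.

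Ptprc was at 30.7, 27.96, 41.3 and 20.8 CPM in BALB/c SNI, against the sham range of 14.3 to 32.1 CPM, and its log2 change was 0.51 ± 0.20 (adjusted p = 0.121 by edgeR). Cd3e was at 0, 0.251, 0.467 and 0.142 CPM (0, 10, 18 and 5 counts), a change of 1.36 ± 0.51 (adjusted p = 0.104 by edgeR). SNI 49, with none, and SNI 65, with the most, thus spanned the whole range of the strain. Cd2, at 0.551, 0.552, 0.726 and 0.425 CPM, changed by 0.74 ± 0.35 (adjusted p = 0.199 by edgeR).

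For some genes 1 library set the direction or the call. Leaving out SNI 65 took the log2 change of Cd8a from 1.46 to -0.0085, of Cd3g from 0.46 to -0.43 and of Cd3d from 0.24 to -0.47. Leaving out the 3 libraries high in marrow or muscle genes instead brought Ptprc (0.77, adjusted p = 0.00655), Cd3e (1.69, adjusted p = 0.0449) and Cd2 (1.25, adjusted p = 0.0461) past the threshold in edgeR, with 10.1% of features called. That set was chosen after seeing the data. It holds sham 55 and 50, the highest sham libraries for Ptprc and Cd2, and SNI 49, which had no Cd3e counts. A shift towards a rise was thus built in for these genes, and these calls are no support for one. Ptprc was also called without sham 50 alone (0.66, adjusted p = 0.0246 by edgeR) or sham 55 alone (0.64, adjusted p = 0.0425), and Cd3e without SNI 49 alone (1.61, adjusted p = 0.0271).

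In B10.D2, SNI called none of the 10 either. Of the log2 changes, 7 were positive and 3 negative, from -0.57 for Cd79a to 0.66 for Cd3d, with a median of 0.05. edgeR called 0 and DESeq2 0, and 0 of the 10 had an unadjusted p under 0.05 (16.8% of all features), where 4.58% of all features were called. Ptprc was at 46.4, 32.2, 40.0, 22.5 and 37.8 CPM in B10.D2 SNI against 25.6 to 34.2 CPM in sham, a change of 0.19 with a 95% interval from -0.22 to 0.60. Cd3e stood at 0.296 ± 0.0621 CPM in SNI and 0.256 ± 0.145 CPM in sham (SD, n = 5 each). None of the 10 separated the groups, as 3.24% of features did.

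Few T cell genes outside the 10 were called with SNI. Of 20 tested genes of T cell receptor signalling and the T cell surface, 2 were higher and 2 lower in BALB/c, beside 9.69% of all features. In B10.D2 1 of these 20 was higher and 0 lower, near the 4.58% of all features. Trdc, the constant region of the delta receptor chain of gamma-delta T cells, rose by 1.98 (BALB/c) and 1.11 (B10.D2) on the log2 scale, from 0.149 ± 0.0722 (n = 6) to 0.602 ± 0.106 CPM (n = 4) and from 0.263 ± 0.0708 to 0.594 ± 0.245 CPM (n = 5 each). Trdc was the 1 gene of this list called in B10.D2. Its counts were few, at 3 to 11 a library in BALB/c sham and 18 to 23 in BALB/c SNI. In B10.D2 they were 6 to 12 in sham and 12 to 35 in SNI. In BALB/c Trbc1 rose too (1.12), while Skap1 was lower (-0.75), and Gzmb of cytotoxic cells rose by 1.91 from 0 to 6 counts a sham library to 5 to 15. Of 17 B cell genes only the complement receptor gene Cr2 rose, by 1.14 (BALB/c) and 0.68 (B10.D2), and of 13 antibody and plasma cell genes Sdc1 (1.07 in BALB/c, 0.67 in B10.D2) and, in BALB/c, Ighd (1.0). Macrophage genes rose in 4 of 12 cases in BALB/c (Cx3cr1 by 0.97, Trem2 by 0.84) and 1 of 12 in B10.D2 (Trem2 by 0.82), beside 9.69% and 4.58% of all features, and their part was not tested.

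The injury change of the 10 genes was not shown to differ between the strains. The interaction, B10.D2 change minus BALB/c change, was called for 0 of the 10 by edgeR and 0 by DESeq2, with every adjusted p at 1 by edgeR and 0.0243% of all features called. An unadjusted p under 0.05 was reached by 3 of the 10 and by 4.35% of all features, the 3 being Cd2 (-1.20, 95% interval -2.16 to -0.23), Ms4a1 (-1.12, -2.07 to -0.17) and Cd79a (-0.97, -1.77 to -0.17), whose changes were positive in BALB/c and negative in B10.D2. None of the 17 other B cell genes was called.

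Sex was a term of the same model. The 10 female libraries had the higher fitted level for all 10 genes, and 3 had an unadjusted p under 0.05 by edgeR (11.7% of all features), with 0 called by edgeR, 0 by DESeq2 and 0.243% of all features called. Cd3e differed most, at 0.289 ± 0.125 CPM in females and 0.122 ± 0.106 CPM in males (SD, n = 10 each), a log2 difference of 1.25 ± 0.33 (adjusted p = 0.117 by edgeR). The female mean of Cd3e was the higher in 4 of 4 strain and surgery groups, as it was for Cd3g, Cd8a and Ptprc.

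Within groups, the T cell genes varied together from mouse to mouse and less with the B cell genes. After the mean of each strain and surgery group was removed, Spearman's rho over the 20 libraries had a median of 0.48 over the 21 pairs of the 7 T cell genes (0.13 to 0.73), was 0.64 between Cd79a and Ms4a1, and had a median of 0.17 over the 14 pairs of a T cell with a B cell gene (-0.08 to 0.55). Ptprc went with each T cell gene at 0.50 to 0.79, highest with Cd2, and with the B cell genes at 0.48 (Cd79a) and 0.58 (Ms4a1). Sex was not removed, so a sex difference shared by genes also enters rho. The points share libraries and depth, and the low counts of the CD3 genes bound any rho, so these values are descriptions.

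**Figure D4:**
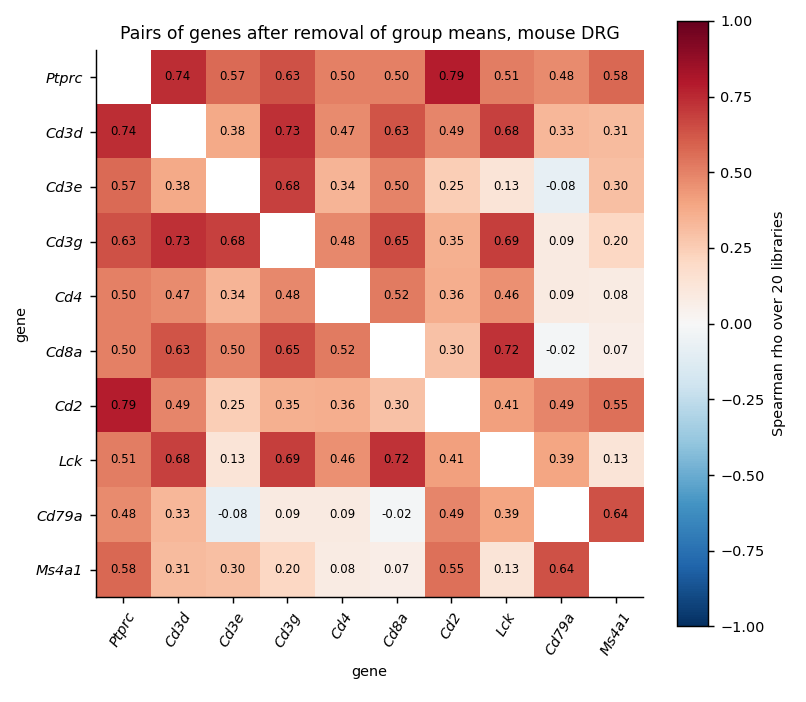
Spearman's rho for each pair of the 10 genes over 20 mouse libraries after removal of group means, with genes on both axes and colour giving rho. Pairs of T cell genes have a median of 0.48 (0.13 to 0.73) and the pair of B cell genes is at 0.64. Cells joining T cell with B cell genes have a median of 0.17 (-0.08 to 0.55). Ptprc lies at 0.50 to 0.79 with T cell genes and at 0.48 and 0.58 with the B cell genes.

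The features most like Ptprc on this measure, of 18591 compared, were Inpp5d (0.94), a phosphatase of blood cells, Trim30a (0.93), Was (0.92), Selplg (0.92) and Gm8995 (0.92). For the summed CPM of Cd3d, Cd3e and Cd3g they were Stat5b (0.85), Slc22a13b-ps (0.83), Smad4 (0.82), Itgax (0.82) and Nlrc3 (0.81), of 18592.

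In the rat, Cd3e, Cd4, Cd2 and Lck were higher 21 days after SNT. Cd3e was 3.99-fold, Cd4 2.42-fold, Cd2 2.24-fold and Lck 2.04-fold the sham level. Cd4 stood at 32.3 to 141 CPM over the 8 libraries and Cd3e at 0.142 to 2.06 CPM, so the change of Cd4 is not read as one of T cells. By edgeR, 4 of the 6 genes tested were called, all higher, where 27.4% of all 13690 features were called. DESeq2, fitted without that filter, called 5 of 9 genes. Cd3d, Cd79a and Ms4a1 did not pass the filter on low counts used with edgeR, and Ptprc was listed at 0 in all 8 libraries. Cd3e passed that filter through its SNT libraries, with 22 to 37 counts there and 2 to 12 in sham. Its place among the 6 genes tested was thus not independent of its change.

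Cd3e was at 0.142, 0.332, 0.782 and 0.366 CPM in sham (libraries A to D) and at 2.06, 1.39, 1.64 and 1.58 CPM in SNT, a log2 change of 2.0 ± 0.39 (adjusted p = 0.0117 by edgeR). The groups did not overlap. Lck was at 2.99, 3.56, 3.13 and 2.62 CPM in sham and at 6.56, 5.56, 6.16 and 6.75 CPM in SNT, a change of 1.03 ± 0.17 (adjusted p = 0.0106 by edgeR), the tightest groups of the set. Cd4, which in rats is also carried by monocytes and macrophages, was at 32.3, 47.2, 74.1 and 35.7 CPM in sham and 141, 94.5, 105 and 118 CPM in SNT, a change of 1.27 ± 0.25 (adjusted p = 0.0118 by edgeR).

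Cd2 was at 0.641, 0.995, 1.30 and 0.793 CPM in sham and 2.61, 1.52, 1.31 and 2.89 CPM in SNT, a change of 1.16 ± 0.34 (adjusted p = 0.0313 by edgeR). Its nearest sham and SNT libraries all but touched, and leaving out 1 library lost the call in 5 of 8 cases. Cd3d, untested, also separated the groups, at 0.142, 0.166, 0.326 and 0.244 CPM in sham and 0.723, 0.443, 0.918 and 1.14 CPM in SNT. Together 5 of the 10 genes did so, against 19% of all features with counts.

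Cd8a depended on 1 library. It was at 0.641, 0.995, 9.90 and 0.427 CPM in sham (9, 12, 152 and 7 counts) and at 7.23, 3.67, 2.95 and 3.59 CPM in SNT. Sham C held more than any SNT library, and with it the log2 change was 0.53 with a 95% interval from -1.31 to 2.37. Without it the change was 2.71 (adjusted p = 0.00290 by edgeR), and Cd3g went from 0.97 (adjusted p = 0.192) to 1.66 (adjusted p = 0.0350 by edgeR). Cd3d then passed the filter at 2.08 (adjusted p = 0.0114 by edgeR). All 7 genes tested were called, where 34.6% of all features were. Cd3d had 2 to 5 counts in sham libraries and 7 to 21 in SNT, so it passed through the SNT libraries. The count of 7 is thus partly set by the filter. In sham C Cd3d, Cd3e, Cd3g, Cd4 and Cd2 were also the highest of the 4 sham libraries, whereas Lck was not. In rats CD8 alpha is also carried by natural killer cells.

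**Figure D5:**
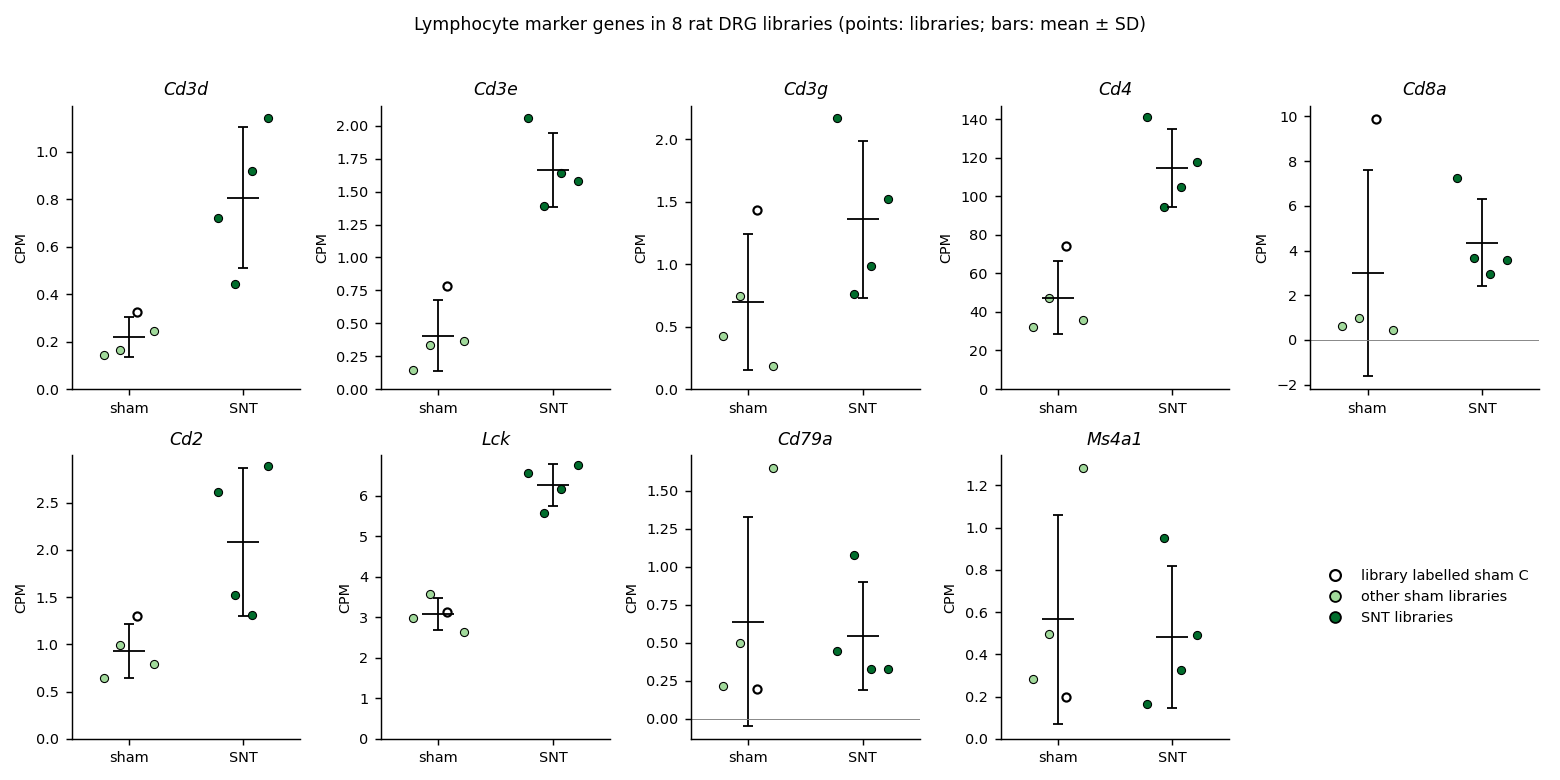
CPM of 9 genes in 8 rat libraries, 1 panel a gene with its own axis that includes 0; points are libraries, the open point sham C, bars the mean ± SD of a group. Cd3e, Cd3d, Cd4, Cd2 and Lck lie apart between sham and SNT, and sham C is high for Cd8a at 9.90 CPM.

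The rat B cell genes were low in both groups. Cd79a was at 0.214, 0.497, 0.195 and 1.65 CPM in sham (3, 6, 3 and 27 counts) and 0.445, 1.07, 0.328 and 0.327 CPM in SNT, and Ms4a1 at 0.285, 0.497, 0.195 and 1.28 CPM in sham and 0.167, 0.948, 0.328 and 0.490 CPM in SNT. Both were highest in sham D and, within SNT, in SNT B. Neither passed the filter for the test, and for both genes the groups overlapped.

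Of the other rat lists, 6 of 9 tested T cell receptor and surface genes were higher in SNT and none lower, among them the co-stimulators Icos (1.82 on the log2 scale) and Cd27 (1.67) and the receptor gene Cd5 (1.61). Of 10 B cell genes 1 was higher, Pax5 (2.20), and of 11 pan-leukocyte genes 6, with Ptpn22 (1.39), Rac2 (1.24) and Was (1.15). Over all rat features tested, 27.4% were called. Of 8 macrophage genes 1 was called, Cx3cr1 (1.35), while the list summed to 543 to 830 CPM in SNT, 681 in sham C and at most 300 CPM in the other sham libraries, with 4 of its 12 genes listed at 0 in all 8 libraries. Its part in the T cell changes was not tested. The rat and mouse experiments differ in nerve lesion, ganglion, day, sex and RNA selection, so their changes stand side by side and were not compared.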

How the data were processed

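Total RNA from DRG was sequenced from strand-specific paired-end libraries. The authors aligned reads with STAR to mm10 (mouse) and rn6 (rat), counted them per gene with HTSeq and deposited raw counts, 1 table per species. The deposited result tables hold the authors' own DESeq2 comparisons and gave only gene symbols here, and annotation files were not used. Of the labelled mouse samples, 2 (1 B10.D2 sham, 1 BALB/c SNI) were not analysed here.

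Counts were tested with edgeR 4.0.16 in R 4.3.3: TMM scaling, filterByExpr, the quasi-likelihood F test and Benjamini-Hochberg adjustment over all features, at an adjusted p under 0.05. The mouse model held sex, strain, surgery and the strain by surgery interaction over 20 libraries, the rat model surgery over 8. SE was the log2 fold change divided by the root of F. CPM are counts over TMM-scaled totals. The floor of 3 counts covers counting error only, and PCR reads without molecular identifiers are not independent molecules. The scripts were tested on simulated data. DESeq2 1.42.0 and other filters, scalings and models were alternatives, as was leaving out each library. Levels per kilobase used GENCODE M21 exons. The likeness measure used log2(CPM + 0.1) of features averaging 1 CPM or more.

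The members and lists were chosen with earlier results of these data known. All members are described. From each other list at most 3 called genes a comparison, those with the largest absolute log2 change, were named, and 5 features each for likeness. The injury genes of rat sham C and the log2 difference of Ebf1 in SNI stand outside that rule and were named after their values were seen. A gene of the lists is not reported here.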

Additional observations from a re-analysis of the deposited data

Results flagged for a closer look

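Within groups of 4 to 6 libraries, 58 gene and group combinations were tested for a single library far from the rest with Dixon's ratio, and 8 were found. Chance gives about 1 in 20. In the mouse, Cd8a was at 0.804 CPM in BALB/c SNI 65 (0.0649 to 0.142 in the others) and Cd3d at 0.389 CPM in the same library (0.0851 to 0.130). Cd3g was at 0.478 CPM in BALB/c sham 57 (0.0501 to 0.193), Ms4a1 at 2.99 CPM in BALB/c sham 55 (1.70 to 2.15), and Cd3e at 0.187 CPM in B10.D2 SNI 89 (0.306 to 0.336), the 1 low library of the 8. In the rat, Cd8a was at 9.90 CPM in sham C (0.427 to 0.995) and at 7.23 CPM in SNT A (2.95 to 3.67), and Cd79a at 1.07 CPM in SNT B (0.327 to 0.445).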

How the results depend on the processing

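The count of the 10 genes called was within 1.5 times its value in 41 of 48 alternative values, those that leave out 1 library aside, and 380 of 410 log2 changes kept their direction and side of the threshold. In BALB/c, SNI called 1 gene with no filter on low counts, 3 without the 3 libraries high in marrow or muscle genes (an alternative chosen after seeing the data), and 0 to 1 on leaving out 1 library. Between strains in sham, 1 gene was called with at least 10 counts in every library (5 tested), 3 with no sex term and 3 to 6 on leaving out 1 library, the 3 without B10.D2 sham 88. In SNI, 7 were called with the strain effect averaged over surgeries and 2 to 4 on leaving out 1 library. In the rat, 2 were called with at least 10 counts in every library (2 tested), 7 without sham C and SNT B (chosen after seeing the data) and 3 to 7 on leaving out 1 library. Where 7 were called, Cd3d was among them and had passed the filter through SNT libraries. Leaving out 1 library gave 0 to 0 for B10.D2 injury, the interaction and sex. Under the stricter filter fewer of the 10 genes were tested. Beyond that the cause was not tested.

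Signs turned as follows. With injury averaged over strains, Cd79a in BALB/c was -0.023, and Cd2 and Ms4a1 in B10.D2 were 0.076 and 0.070. With strain averaged, Ms4a1 in sham was -0.29 and Lck in SNI 0.16. Sex within sham alone gave -0.04 for Cd4, -0.0062 for Lck and -0.22 for Cd79a, and without the 3 marrow-rich or muscle-rich libraries the Cd4 interaction was -0.18. On leaving out 1 library, BALB/c injury changes ran from -0.43 to 0.94 (Cd3g), -0.47 to 0.58 (Cd3d), -0.28 to 0.29 (Cd4) and -0.0085 to 1.83 (Cd8a), and B10.D2 changes from -0.29 to 0.16 (Cd3e), -0.46 to 0.29 (Cd3g), -0.22 to 0.43 (Cd8a) and -0.026 to 0.12 (Lck). The interaction ran from -0.89 to 0.52 (Cd3g), -0.14 to 0.42 (Cd4) and -1.70 to 0.24 (Cd8a). Strain differences ran from -0.038 to 0.54 (Cd3d) and -0.19 to 0.40 (Ms4a1) in sham, and from -0.037 to 0.34 (Cd2) and -0.16 to 0.21 (Lck) in SNI. Sex differences ran from -0.057 to 0.087 (Lck) and -0.091 to 0.12 (Cd79a).

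Rat titles share leading numbers between sham and SNT. The deviations of same-numbered libraries correlated at -0.238 to 0.0529 over 4 pairs, so the numbers were not taken to pair the samples. A fit with the number as a replicate block called Cd3e, Cd4 and Lck again and Cd3d, which then passed the filter through its SNT libraries (1.85, adjusted p = 0.0304 by edgeR). It did not call Cd2 (1.13, adjusted p = 0.0927 by edgeR). Depth limits the CD3 genes and Cd8a in mouse and both B cell genes in rat, where few counts stand behind each value.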
